A study of Rattus norvegicus with 9 samples.

Results

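The serpins of the dorsal root ganglion (DRG) are described here, taken as every gene of the deposited expression table whose symbol begins with Serpin. There were 38 such genes among 20194, and 17 of them reached an FPKM (fragments per kilobase, a level corrected for gene length and library size) of at least 1 in any library. The study compared DRG of adult male Sprague Dawley rats in 3 groups of 3 libraries: sham surgery, spared nerve injury (SNI), and SNI followed by G15 (SNI + G15). In SNI the tibial and common peroneal branches of the sciatic nerve are cut and the sural branch is left, which gives a lasting neuropathic pain model. G15 is an antagonist of the G protein-coupled oestrogen receptor GPER, given intrathecally through a catheter placed on day 5 of SNI, with drugs dissolved in DMSO (2% per the labels, while the methods give another concentration) and left for 24 h. The titles call the sham and SNI samples controls for G15, and whether these rats received the vehicle is not stated, so catheter, vehicle and antagonist cannot be told apart in the comparison of SNI + G15 with SNI. The methods and the supplement differ on how many rats were sequenced, and whether a library is 1 rat or a pool is not given, so the p-values measure the spread between these libraries, which may in part be technical.

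Serpins are protease inhibitors that work once. The protease cuts an exposed loop, the inhibitor folds over, and both are left locked together by a covalent bond. A few members have lost this activity and serve as chaperones, hormone carriers or signalling proteins. In injured nerve and ganglion they meet the plasminogen system, the complement cascade and the elastases, cathepsins and granzymes of invading leukocytes. Clade A and most of clades E to I are secreted, and clade B serpins stay in the cytosol.

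The libraries held 18484557 to 18756736 estimated reads each. The label names DRG tissue while the extraction text speaks of macrophages treated with exosomes. All 13 neuronal markers examined were present, with a summed FPKM of 15045 to 17472 in the 9 libraries, against 477 to 1237 for 13 macrophage markers. SNI + G15 replicate 3 stood apart from its group, with a chi-square per gene of 8.24 and 8.50 against the other two, where the other pairs within a group lay between 2.56 and 4.60. For the serpins, the calls in the comparisons that include it were also counted without it. Values for the genes of the other lists are given only with it. In bulk tissue, fewer cells of a type and less RNA per cell cannot be told apart.

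The 250 bases before the annotated start of 4 serpin genes are shown, from RefSeq on GRCr8, each in the direction of its gene. Serpina3n and Serpinb2 had the largest fitted increases after injury, and Serpinb1a and Serpinb1b are paralogs whose levels moved in opposite directions after SNI. Capitals mark matches to the motifs described below. The Serpina3n sequence lies at chr6:129088142-129088391 on the plus strand and that of Serpinb2 at chr13:24055771-24056020 on the plus strand. The Serpinb1a sequence lies at chr17:31799196-31799445 on the plus strand, and RefSeq lists 2 starts for Serpinb1b on the minus strand, with sequences at chr17:31536697-31536946 (start A) and chr17:31538120-31538369 (start B).
Serpina3n: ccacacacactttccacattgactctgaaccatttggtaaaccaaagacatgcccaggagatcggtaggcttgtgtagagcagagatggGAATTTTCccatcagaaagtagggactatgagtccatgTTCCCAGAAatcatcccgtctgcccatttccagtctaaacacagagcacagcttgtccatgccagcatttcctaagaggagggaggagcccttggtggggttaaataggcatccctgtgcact
Serpinb2: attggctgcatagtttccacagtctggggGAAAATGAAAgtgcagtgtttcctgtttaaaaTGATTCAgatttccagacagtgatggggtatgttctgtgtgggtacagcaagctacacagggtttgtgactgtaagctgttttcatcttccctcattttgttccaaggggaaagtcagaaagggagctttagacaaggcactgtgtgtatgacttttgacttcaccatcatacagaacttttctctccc
Serpinb1a: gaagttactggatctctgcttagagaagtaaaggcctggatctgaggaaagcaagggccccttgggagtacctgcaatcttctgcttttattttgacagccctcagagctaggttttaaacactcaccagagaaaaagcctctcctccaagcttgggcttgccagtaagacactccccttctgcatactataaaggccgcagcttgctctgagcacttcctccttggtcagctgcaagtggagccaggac
Serpinb1b, start A: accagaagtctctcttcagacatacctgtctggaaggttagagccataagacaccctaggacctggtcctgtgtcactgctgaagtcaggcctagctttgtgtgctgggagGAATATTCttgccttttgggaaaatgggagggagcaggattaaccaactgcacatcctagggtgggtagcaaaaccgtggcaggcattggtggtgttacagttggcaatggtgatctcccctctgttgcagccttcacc
Serpinb1b, start B: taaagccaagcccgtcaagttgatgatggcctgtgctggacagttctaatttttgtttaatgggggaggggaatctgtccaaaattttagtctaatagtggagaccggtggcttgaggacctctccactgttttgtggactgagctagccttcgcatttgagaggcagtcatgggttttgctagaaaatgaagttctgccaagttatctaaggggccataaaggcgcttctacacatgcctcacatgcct
In the Serpina3n sequence the capitals are a match to GAANNTTC, the core repeat of heat-shock elements, at positions -161 to -154 from the start, and a match to TTCNNNGAA, the palindrome bound by STAT factors, at -123 to -115. In Serpinb2 they are the interferon-stimulated response element, taken as GAAA and GAAA parted by 2 bases, at -221 to -212, and TGANTCA, the AP-1 site, at -189 to -183. Serpinb1b start A held the heat-shock repeat at -139 to -132, and neither start B nor Serpinb1a held any of the 8 motifs searched. The sequences marked do not overlap one another.

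A start was listed for 14 of the 17 genes, with 16 starts in all, but not for Serpina10 or Serping1. Both strands of the 250 bases were searched. The STAT palindrome was also in Serpina11 (-14 to -6), and 7.67% of all 33469 rat starts held it. The heat-shock repeat was also in Serpinh1 (-30 to -23), against 7.23% of all starts. Serpinb9 held the interferon element (-69 to -60), against 3.41% of all starts, and the AP-1 site stood in 6.34% of them. TGACNNNGC, the antioxidant response element, was in Serpina11 (-71 to -63) and at 1 of 2 starts of Serpinb6a (-237 to -229), against 10.1% of all starts. TGACGTCA (CRE), TTGCNNCAA (C/EBP) and the oestrogen response element (GGTCA and TGACC parted by 3 bases) were in none of the 14 genes, and stood in 1.59%, 1.75% and 0.0239% of all starts. A match is a run of letters and not a shown binding site.

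By clade, 4 of 14 clade A genes and 7 of 14 clade B genes reached an FPKM of 1. So did 1 of 2 clade F genes and the single genes of clades G, H and I, but not those of clades C and D (Serpinc1 and Serpind1, antithrombin and heparin cofactor). Of the 21 genes below that level, 15 had at most 3 estimated reads in any library. The lowest gene counted in was Serpinb10, at exactly 1 FPKM in 1 library, and the highest left out was Serpinb8, at 0.74 FPKM, followed by Serpinf2, the plasmin inhibitor, at 0.59 FPKM. A minimum of 0.5 or 2 FPKM would have kept 19 or 14 genes. Serpina1f, one of those left out, was listed at 0 in all sham libraries and had 23 estimated reads over the SNI group and 26 over SNI + G15. The other 18 below the level, none above 0.17 FPKM, were Serpina12, Serpina16, Serpina3c, Serpina3m, Serpina4, Serpina5, Serpina6, Serpina7, Serpina9, Serpinb11, Serpinb13, Serpinb3a, Serpinb5, Serpinb6e, Serpinb7, Serpinc1, Serpind1 and Serpine3.

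**Figure D1:**
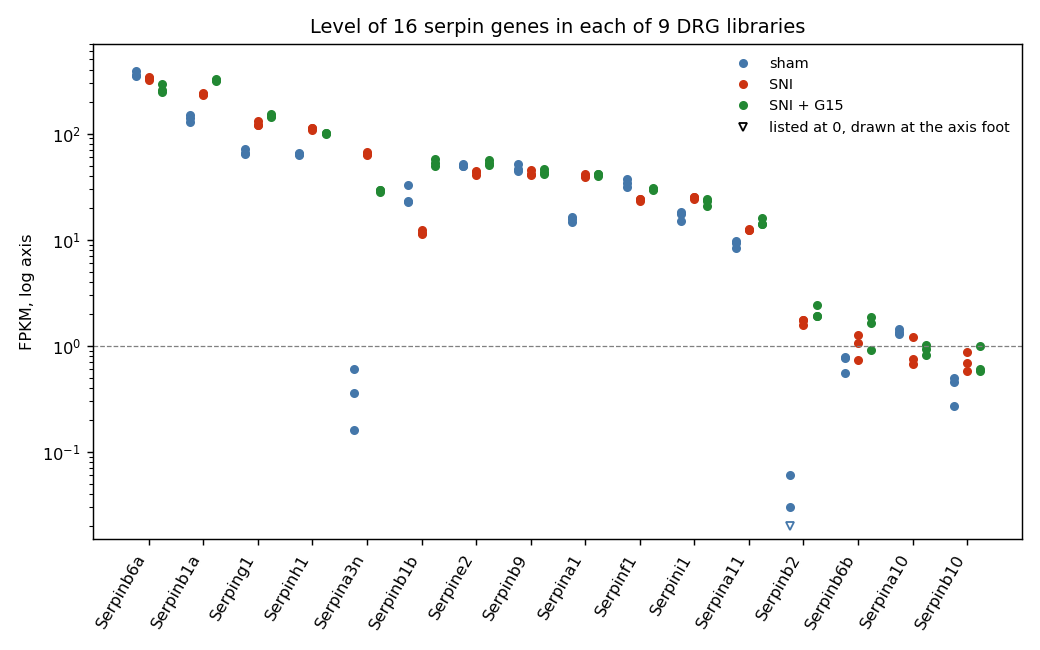
FPKM (log axis) of 16 serpin genes in each library, 1 point a library, with sham, SNI and SNI + G15 side by side and the dashed line at 1 FPKM. Serpinb6a and Serpinb1a were highest in all 9 libraries, and the widest gaps between sham and the injured groups are those of Serpina3n and Serpinb2.

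The summed FPKM of the 38 serpins was 803 to 894 in sham, 1057 to 1094 in SNI and, with G15, 1123 to 1164, and the 3 ranges did not overlap. As a share of all FPKM in the library it was 0.166% to 0.180% in sham and 0.218% to 0.223% in SNI. With G15 that share was 0.218% to 0.222%, so on this scale SNI and SNI + G15 overlapped and only sham stood apart. Serpinb6a, a cytosolic inhibitor of cathepsin G, made up 43.1% to 43.8% of that sum in sham, 30.6% to 31.4% in SNI and, with G15, 21.9% to 25.4%. Serpinb1a, which inhibits neutrophil elastase, cathepsin G and proteinase 3, went the other way, from 15.9% to 17.1% in sham, through 21.6% to 22.1%, to 28.1% to 28.5%. In SNI + G15 it was therefore the largest single part. Serpina3n made up 0.020% to 0.073% in sham, 5.78% to 6.13% in SNI and, with G15, 2.40% to 2.61%.

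**Figure D2:**
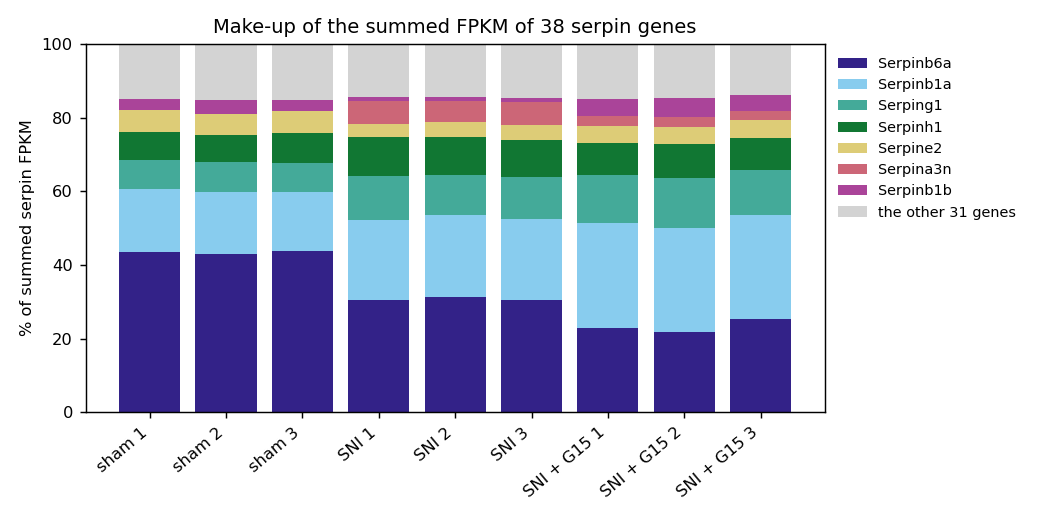
Share of the summed serpin FPKM (percent, bars from 0 to 100) taken by 7 genes and by the other 31, in each library. The Serpinb6a part shrinks from sham to SNI to SNI + G15 while the Serpinb1a part grows, and the Serpina3n part is visible only in the injured groups.

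After SNI, 14 of the 17 serpins were called against sham, that is, had an adjusted p under 0.05 by edgeR's quasi-likelihood F test (background: 45.7% of the 14305 genes tested). Of these 9 were higher (background 23.3%) and 5 were lower (background 22.4%). The FPKM ranges of the groups did not overlap for 15 of 17 (background 53.9%). The median log2 fold change over the 17 was 0.52, against 0.0010 over all genes tested, and the median size without regard to sign was 0.73 against 0.18. The 17 genes passed a filter on level, some of them only through the injured libraries, so these counts and medians describe them and are not support for a shift of the family.

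Between SNI + G15 and SNI, 8 of the 17 were called (background 15.2%), with 6 higher (background 7.98%) and 2 lower (background 7.25%). Ranges did not overlap for 11 of 17 (background 38.3%), and the median change was 0.085 on the log2 scale, against 0.0063 over all genes. Without SNI + G15 replicate 3 there were again 8 calls (background 16.3%), 5 higher (background 8.14%) and 3 lower (background 8.16%): Serpina11 was lost and Serpinh1 (-0.13) gained. Without SNI replicate 2, or without SNI replicate 3, 5 serpins were called (background 6.47% and 6.24%). Between SNI + G15 and sham, 14 of the 17 were called (background 43.2%), 11 higher (background 21.4%) and 3 lower (background 21.9%), and 15 of 17 had ranges that did not overlap (background 52.9%). Without SNI + G15 replicate 3 that comparison had 12 calls (background 42.0%). The 3 comparisons share libraries in pairs, so their values are set side by side and are not independent.

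**Figure D3:**
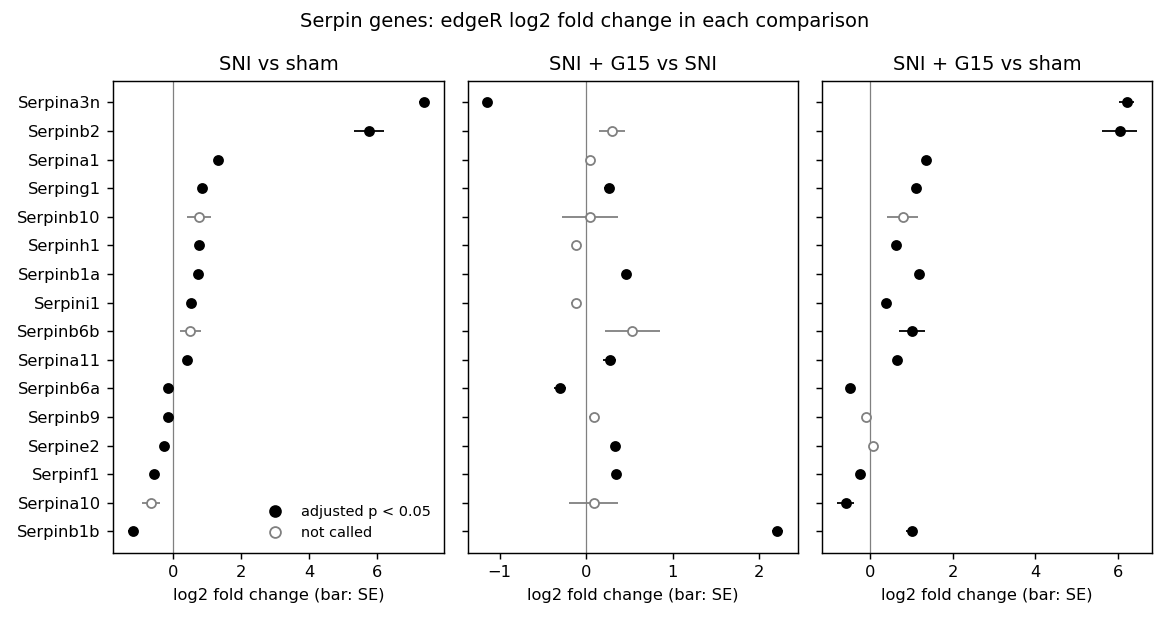
Fitted log2 fold change (points, with bars of 1 SE) of 16 serpins in the 3 comparisons, each panel with its own axis. Filled points have an adjusted p below 0.05, and in the middle panel Serpinb1b stands farthest to the right at 2.21 and Serpina3n farthest to the left at -1.15.

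Among the secreted inhibitors of leukocyte proteases, Serpina3n changed most. This rodent member of the antichymotrypsin group inhibits leukocyte elastase and granzyme B and is known to be induced in DRG after nerve injury. Its FPKM was 0.60, 0.36 and 0.16 in sham, 66.9, 63.2 and 63.9 in SNI, and 29.3, 29.3 and 27.9 in SNI + G15. The SNI libraries all lay above the SNI + G15 libraries, and these above sham, with no overlap. The log2 fold change was 7.39 ± 0.14 (SE, adjusted p = 8.54e-11) for SNI against sham. As counts, 7420 reads over the SNI group stood against 43 over sham, a ratio of 173 with an exact 95% counting interval of 128 to 239. With G15 the level was lower than in SNI by a log2 fold change of -1.15 ± 0.044 (adjusted p = 1.80e-06), and it still exceeded sham by 6.21 ± 0.19 (adjusted p = 1.06e-08). These log2 differences from sham rest on the 43 reads of sham: over the alternatives they ran from 5.59 (limma on FPKM plus 1) to 7.90 (without sham replicate 1) for SNI, and from 4.45 to 6.73 in the same settings for SNI + G15, with every call kept. The summed FPKM of 9 erythroid and blood markers also was highest in SNI (1979 to 2057), lower in SNI + G15 (1177 to 1366) and lowest in sham (605 to 724), and its part in the Serpina3n values was not tested.

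Serpina1, alpha-1-antitrypsin, the main plasma inhibitor of neutrophil elastase, was at 15.6, 16.4 and 14.8 FPKM in sham, 38.9, 42.0 and 39.6 in SNI, and 39.8, 41.8 and 41.5 in SNI + G15. Injured ganglia were thus higher with no overlap, by a log2 fold change of 1.33 ± 0.055 (adjusted p = 2.17e-08). Levels with and without G15 overlapped, with a difference of 0.045 ± 0.050 (adjusted p = 0.565). The summed FPKM of 9 plasma protein genes of hepatocytes was 28.3 to 31.7 in sham, 36.1 to 37.4 in SNI and, with G15, 52.7 to 57.6. Only 2 of the 9 reached 1 FPKM and were tested. After SNI, 1 was called higher (background 23.3%) and none lower (background 22.4%), with a median log2 fold change of -0.29. With G15, 2 were called higher (background 7.98%). The part of the 9 genes in the Serpina1 values was not tested. Serpina11, the gene next to it in RefSeq, was at 8.30, 9.40 and 9.75 FPKM in sham, 12.2, 12.5 and 12.3 in SNI, and 14.0, 14.2 and 16.1 in SNI + G15. It rose after SNI (0.40 ± 0.073, adjusted p = 0.00117). It rose again with G15 by 0.27 ± 0.072 (adjusted p = 0.0383), a call that was lost in 7 of 15 alternative fits, among them those without any 1 library other than SNI + G15 replicate 1 (0.19 to 0.30, the lowest without SNI + G15 replicate 3).

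**Figure D4:**
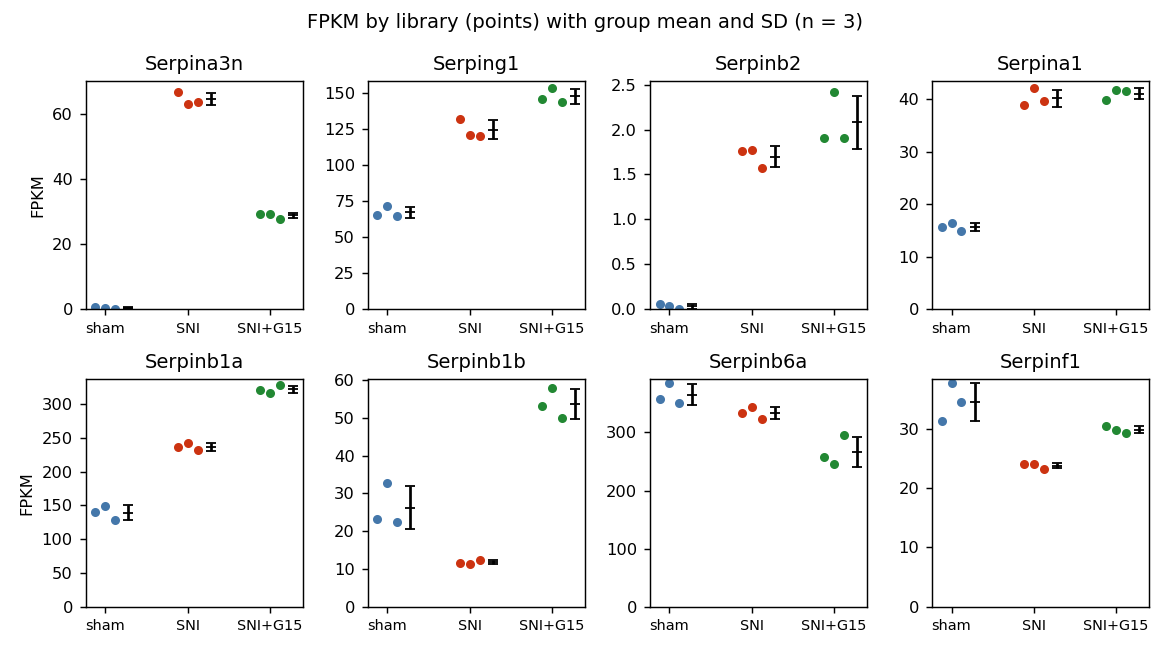
FPKM by library (points) with the group mean and SD to the right (n = 3 libraries), linear axes from 0, for 8 serpins. Serpina3n, Serping1, Serpinb2 and Serpina1 were high in both injured groups, Serpinb1a stepped up from sham to SNI to SNI + G15, and Serpinb1b was lowest in SNI and highest in SNI + G15.

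Among the inhibitors of the plasminogen activators, Serpinb2 (PAI-2), a mostly cytosolic inhibitor of urokinase found in activated macrophages, was at 0.06, 0.03 and 0 FPKM in sham, 1.76, 1.77 and 1.57 in SNI, and 1.91, 2.42 and 1.91 in SNI + G15. It thus went from 3 reads over all sham libraries to 188 over SNI and 229 over SNI + G15, ratios of 62.7 (exact 95% counting interval 21.1 to 307) and 76.3 (25.8 to 373). The fitted log2 fold change for SNI, 5.77 ± 0.44 (adjusted p = 2.08e-06), ran over the alternatives from 1.39 (limma on FPKM plus 1) to 6.63 (without sham replicate 1), with the call kept in all of them, and was 5.25 without sham replicate 3. The G15 difference was not called (0.30 ± 0.15, adjusted p = 0.218), although the ranges did not overlap.

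Serpini1, neuroserpin, a neuronal inhibitor of tissue plasminogen activator, was at 18.3, 17.6 and 15.1 FPKM in sham, 24.3, 25.3 and 25.4 in SNI, and 24.1, 23.2 and 20.9 in SNI + G15. It was higher after SNI (0.52 ± 0.065, adjusted p = 8.67e-05), while 7 of 13 neuronal markers were lower (background 22.4%) and 3 higher (background 23.3%). Its G15 difference was -0.12 ± 0.056 (adjusted p = 0.167). Serpine2, protease nexin-1, a glial inhibitor of thrombin and urokinase, was at 49.5, 51.6 and 49.0 FPKM in sham, 41.2, 44.2 and 43.4 in SNI, and 50.5, 53.0 and 56.4 in SNI + G15. It was the reverse of neuroserpin after SNI, falling by 0.25 on the log2 scale (SE 0.042, adjusted p = 0.000625), and rose with G15 (0.34 ± 0.056, adjusted p = 0.00519), so that SNI + G15 and sham differed by 0.059 ± 0.061 (adjusted p = 0.465). Schwann cell markers moved with it in part: 8 of 10 were lower in SNI (background 22.4%), where their summed FPKM was 2997 to 3052 against 5379 to 5493 in sham. With G15, 6 of 10 rose (background 7.98%), and the sum was 3245 to 3364. Their part in the Serpine2 values was not tested. Serpina10, which inhibits coagulation factor Xa, was at 1.29, 1.35 and 1.45 FPKM in sham, 1.22, 0.67 and 0.75 in SNI, and 0.82, 1.02 and 0.94 in SNI + G15. It was called lower in SNI + G15 than in sham (-0.60 ± 0.21, adjusted p = 0.0420), a call lost in 10 of 15 alternatives, including those without any 1 of the 6 libraries (-0.50 to -0.67). In SNI it was not called (-0.66 ± 0.26, adjusted p = 0.0625), where 5 of 15 alternatives did call it, 1 of them without SNI replicate 1 (-0.97).

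The proteases and receptors on which these inhibitors act can be read beside them. Of all genes tested, 23.3% were higher and 22.4% lower after SNI, and 7.98% higher and 7.25% lower with G15, which is the background to the count of each list from here on. Of 23 tested genes of the plasminogen, thrombin, coagulation and kinin system, 13 were higher and 5 lower after SNI (median log2 fold change 0.47), and 4 were higher and 1 lower with G15. Thbd, thrombomodulin, which turns thrombin towards protein C, rose (1.37 ± 0.050, adjusted p = 8.21e-09), as did Pros1, the protein C cofactor (0.57 ± 0.059, adjusted p = 1.99e-05), which rose again with G15 (0.44 ± 0.062, adjusted p = 0.00244). The thrombin receptor gene F2rl2 fell by 0.65 on the log2 scale (adjusted p = 3.57e-06). Htra1, a secreted serine protease, followed the order of Serpine2: 230 to 238 FPKM in sham, 186 to 190 in SNI and, with G15, 226 to 238. The plasminogen activators themselves, Plau and Plat, are named because they are the targets of Serpinb2 and Serpini1, after their values were seen. Plau was at 2.36, 2.36 and 2.01 FPKM in sham and 3.95, 4.57 and 4.70 in SNI, a rise of 0.94 ± 0.12 (adjusted p = 7.82e-05). Plat, at 77.3 to 81.9 FPKM in sham, differed by 0.029 ± 0.038 after SNI (adjusted p = 0.560), and rose with G15 (0.15 ± 0.039, adjusted p = 0.0337). Among 12 tested genes for receptors and surface partners of serpins, 6 were higher and 4 lower after SNI, and 1 each with G15. Sdc1, a heparan sulphate proteoglycan, rose by 2.48 ± 0.065 (adjusted p = 5.66e-10), and Sorl1, a receptor of the LDL receptor family, fell by 0.58 (adjusted p = 1.97e-06).

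Serping1, the C1 inhibitor, which blocks the first proteases of complement and plasma kallikrein, was at 65.3, 71.5 and 64.4 FPKM in sham, 132, 121 and 120 in SNI, and 145, 154 and 143 in SNI + G15. The 3 groups were ordered without overlap. It rose after SNI (0.86 ± 0.054, adjusted p = 5.44e-07) and rose further with G15 (0.26 ± 0.050, adjusted p = 0.0107), where the call was lost without SNI replicate 2 or SNI replicate 3 (0.24 in each case). Of 15 complement genes tested, 13 were higher and none lower after SNI (median 0.85), and 2 were higher and 3 lower with G15. Its target C1s rose after SNI (0.81 ± 0.048, adjusted p = 3.45e-07), and C3, the central component, rose by 2.62 ± 0.064 (adjusted p = 3.97e-10). With G15, C3 fell by 0.50 (adjusted p = 0.00112), C2 by 0.28 (adjusted p = 0.00323) and C4b by 0.25 (adjusted p = 0.0221).

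The clade B inhibitors stay in the cytosol, where they meet proteases that leak from granules. Serpinb1a was at 141, 150 and 128 FPKM in sham, 236, 242 and 232 in SNI, and 321, 316 and 327 in SNI + G15, rising at each step without overlap. The log2 fold changes were 0.73 ± 0.053 after SNI (adjusted p = 1.50e-06) and 0.46 ± 0.038 with G15 (adjusted p = 0.000177). The summed FPKM of 13 macrophage markers had the same order, 477 to 526 in sham, 1055 to 1102 in SNI and, with G15, 1209 to 1237, with 12 of 13 called higher after SNI. With G15, 4 of the 13 were called higher and 1 lower, with a median log2 fold change of 0.13. All 8 neutrophil markers tested were also higher after SNI. With G15, 1 of these 8 was higher and none lower (median 0.057). Neither list's part in the Serpinb1a values was tested.

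Serpinb1b, a paralog of Serpinb1a, was at 23.3, 32.7 and 22.5 FPKM in sham, 11.7, 11.2 and 12.3 in SNI, and 53.1, 58.0 and 49.99 in SNI + G15. It was the serpin with the largest G15 difference. It fell by 1.19 on the log2 scale after SNI (SE 0.13, adjusted p = 3.24e-05), rose by 2.21 ± 0.067 with G15 (adjusted p = 4.29e-07), and stood above sham in SNI + G15 by 1.0 ± 0.13 (adjusted p = 0.000146). These calls were kept in all 15 alternatives to each fit of the separate gene. The estimated counts of both genes were not whole in any library, no single gene completed them, and their sum was fractional too, so which sequences shared their reads is not shown by the table and the level of each is uncertain. Of the reads assigned to the pair, Serpinb1b took 19.4% to 24.1% in sham, 6.33% to 7.17% in SNI and, with G15, 18.2% to 21.1%. Their summed counts rose after SNI, by 0.48 (adjusted p = 0.000109). Serpinb1a held most of these reads and sets the sign of the sum, so the sum cannot test the direction given for Serpinb1b alone.

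Serpinb6a, the most abundant serpin in sham and SNI, was at 358, 385 and 351 FPKM in sham, 333, 343 and 323 in SNI, and 258, 246 and 296 in SNI + G15. It was slightly lower after SNI, by 0.16 on the log2 scale (SE 0.042, adjusted p = 0.00951), a call lost with all 9 libraries in one fit (-0.17, adjusted p = 0.0611), and lower with G15 by a further 0.31 (log2 fold change -0.31 ± 0.069, adjusted p = 0.0205). The second call was lost in 5 of 15 alternatives, those without SNI replicate 1, 2 or 3 or SNI + G15 replicate 1 or 2 (-0.25 to -0.33). SNI + G15 replicate 3 was the highest of its group, and without it the difference was -0.40 and was called. Serpinb6b, a paralog at 0.55, 0.77 and 0.79 FPKM in sham, 0.73, 1.06 and 1.26 in SNI and 1.85, 0.92 and 1.63 in SNI + G15, was called in SNI + G15 against sham only (1.02 ± 0.31, adjusted p = 0.0249; lost without sham replicate 1, SNI + G15 replicate 1 or SNI + G15 replicate 3, at 0.83 to 0.94). No count of either gene was whole in any library. Of 7665 genes with a fractional count, Serpinb6b was the only one whose count made that of Serpinb6a whole in all 9 libraries (tolerance 0.025), and it held 0.16% to 0.74% of the reads of the pair and Serpinb6e.

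Serpinb9, the cytosolic inhibitor of granzyme B, was at 46.3, 51.3 and 44.3 FPKM in sham, 45.5, 41.0 and 41.9 in SNI, and 46.8, 43.5 and 41.5 in SNI + G15. All groups overlapped. It was called lower after SNI (-0.16 ± 0.056, adjusted p = 0.0344), a call lost in 7 of 15 alternatives, among them those without sham replicate 1 or 2 or SNI replicate 2 or 3 (-0.12 to -0.17). Its target Gzmb, at 0, 0.26 and 0 FPKM in sham, was at 1.49, 2.96 and 3.55 in SNI, above sham without overlap. Serpinb10, known from bone marrow and monocytes, was at 0.27, 0.46 and 0.50 FPKM in sham, 0.88, 0.58 and 0.69 in SNI and 0.58, 1 and 0.61 in SNI + G15, and was called in no comparison (0.77 ± 0.36, adjusted p = 0.104, after SNI). Of 10 tested serine proteases and related enzymes of leukocytes and mast cells, 3 were higher and 3 lower after SNI, and 2 were higher with G15. Ctsc, the cathepsin that activates granule proteases, rose after SNI (0.84 ± 0.056, adjusted p = 7.60e-07). Both genes that rose with G15 were mast cell proteases, Cma1 (3.09 ± 0.39, adjusted p = 0.00134) and Tpsb2 (2.98 ± 0.43, adjusted p = 0.00284), each at no more than 1.99 FPKM.

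Of the serpins that do not inhibit proteases, Serpinh1 is the collagen chaperone of the endoplasmic reticulum. It was at 62.5, 66.2 and 64.7 FPKM in sham, 113, 112 and 108 in SNI, and 100.1, 102 and 101 in SNI + G15. It rose after SNI (0.75 ± 0.040, adjusted p = 1.57e-07). With G15 the ranges were lower without overlap, but the difference missed the threshold (-0.12 ± 0.039, adjusted p = 0.0731). Of 24 genes of collagen synthesis, its clients and partners, 10 were higher and 1 lower after SNI, and 13 were higher and none lower with G15. Col3a1 was that 1 (-0.15 ± 0.034, adjusted p = 0.00552), and it rose with G15 (0.42 ± 0.034, adjusted p = 0.000149), as did the collagen crosslinker Lox (0.90 ± 0.070, adjusted p = 0.000131). P4hb, a subunit of prolyl hydroxylase, rose after SNI (0.42 ± 0.036, adjusted p = 5.26e-06). Of 18 tested genes, made up of chaperones and the heat-shock transcription factor Hsf1, 9 were higher and 1 lower after SNI. With G15, 1 was higher and 3 lower. Hspa5, the main chaperone of the same compartment, had the order of Serpinh1, rising after SNI (0.63 ± 0.039, adjusted p = 5.04e-07) and falling with G15 by 0.41 (adjusted p = 0.000684).

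Serpinf1 (PEDF), a secreted neurotrophic and antiangiogenic protein, was at 31.3, 37.7 and 34.6 FPKM in sham, 24.1, 24.0 and 23.3 in SNI, and 30.5, 29.8 and 29.3 in SNI + G15. It fell after SNI by 0.57 on the log2 scale (SE 0.068, adjusted p = 6.46e-05) and rose with G15 (0.34 ± 0.048, adjusted p = 0.00250), to a level that was called below sham (-0.25 ± 0.074, adjusted p = 0.0207; lost without sham replicate 2 or 3 or SNI + G15 replicate 2, at -0.18 to -0.24). Fibroblast markers moved with it in part: 7 of 12 were lower and 3 higher after SNI, and 10 of 12 were higher with G15. Their summed FPKM rose after SNI, from 2933 to 3069 in sham to 3264 to 3383 in SNI. With G15 it was at least 4255 in each library. In SNI + G15 against sham, 8 of the 12 were higher and 3 lower, whereas Serpinf1 was lower. The part of these markers in the Serpinf1 values was not tested.

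Of the lists that the study's tissue and the named members call for, acute-phase and STAT3-linked genes had 19 of 20 tested genes higher and none lower after SNI (median 1.03), and 13 higher and 1 lower with G15. Socs3, the feedback inhibitor of that pathway, rose after SNI (2.79 ± 0.069, adjusted p = 4.19e-10) and again with G15 (0.36 ± 0.046, adjusted p = 0.00142), and Lbp, the lipopolysaccharide-binding protein, rose by 1.15 ± 0.095 (adjusted p = 3.99e-06) and then by 2.39 ± 0.078 (adjusted p = 5.90e-07). Serpina3n, itself counted among acute-phase proteins but not in that list, was lower with G15. Its sign was opposite to that of the 13 genes called higher and the same as that of the 1 called lower. Of 30 interferon-response genes, 17 were higher and 3 lower after SNI, and with G15 none was higher and 25 were lower. Among these Rsad2, an antiviral enzyme, fell by 1.86 on the log2 scale (SE 0.061, adjusted p = 5.90e-07). Of 24 tested protease inhibitors outside the serpin family, 7 were higher and 5 lower after SNI, and 7 higher and 1 lower with G15, with medians of -0.035 and 0.019 on the log2 scale. A2m, the general protease trap of plasma, rose after SNI (2.81 ± 0.045, adjusted p = 4.13e-11) and again with G15 (0.97 ± 0.055, adjusted p = 2.31e-05). Timp1, the metalloprotease inhibitor, did so too (2.08 ± 0.069, adjusted p = 4.39e-09, then 0.22 ± 0.040, adjusted p = 0.00748).

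The table of transcripts held 59 for the 38 genes and 34 for the 17. Among the 17, 8 genes had 1 transcript and 9 had more. Serpina1 was 1 transcript almost alone: it held 100% of the gene's FPKM in sham, 94.6% to 97.8% in SNI and, with G15, 95.0% to 100%. Serpinb6a was divided between a pair of transcripts, of which the larger held 53.2% to 58.3% in sham, 57.3% to 64.3% in SNI and, with G15, 55.8% to 64.5%. The 3 transcripts of Serpinb2 had no stable split, with shares in SNI from 0% to 70.6% for the same transcript. Counts were whole in all 9 libraries (within 0.005) for 9 of the 17 genes, or 52.9%, against 62.6% of all genes tested. They were whole in none for Serpinb1a, Serpinb1b, Serpinb6a and Serpinb6b, and in some for Serpina3n, Serpinb9 and Serpina10. The 3 fractional counts of Serpinb9 were completed by LOC100911107 alone, and for Serpina3n and the Serpinb1a and Serpinb1b pair no single gene completed them.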

How the data were processed

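DRG transcriptomes of 9 samples (3 each of sham, SNI and SNI + G15) entered. The authors deposited FPKM per gene and per transcript, the gene value being the sum over its transcripts, and estimated counts, which carry no normalization and hold fractions where reads were divided. Reads were paired, 150 bp long. Aligner and quantifier are not given in the sources used here. The submitters' notes name the mouse builds GRCm38 and mm10, while the table holds rat genes, so the build is open and no coordinate is taken from it. Table columns headed Control were read as sham, since no other group lacked columns, and matched to sham samples by their number.

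Counts, rounded to whole numbers, were fitted in R 4.3.3 by edgeR 4.0.16 (TMM scaling, quasi-likelihood F test) on the 2 groups compared. All 14305 genes that reached 1 FPKM in any library were fitted, and p-values were adjusted over all of them (Benjamini-Hochberg). Alternatives used DESeq2 1.42.0, limma 3.58.1 on log2 of FPKM plus 1 or 0.1, other scalings and filters, all 9 libraries, a replicate block and each library left out; summed paralogs were added after seeing the data. The fit was tested on simulated data. Intervals of count ratios are exact at 95% and cover counting error only.

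The serpins reaching 1 FPKM are named, except 1 that is not reported here but stays in the counts, and of the other lists up to 6 genes with the smallest adjusted p in SNI against sham or SNI + G15 against SNI. Members and lists were chosen with earlier results of these data known. All 38 serpins matched RefSeq (GRCr8) by gene ID, and the sequences come from its 250 upstream bases. Deposited TPM, group averages and plot data were not used.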

Additional observations from a re-analysis of the deposited data

How the results depend on the processing

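Calls among the 17 serpins ranged over the alternatives from 13 to 15 for SNI against sham (background 34.0% to 45.8%) and from 12 to 14 for SNI + G15 against sham (32.5% to 48.1%). Wider filters on level also called Serpinb8 after SNI (edgeR's filterByExpr) and Serpina1f in both (at least 1 count). Leaving out 1 library at a time gave 5 to 8 for SNI + G15 against SNI (background 6.24% to 16.3%), and 5 both without SNI replicate 2 and without SNI replicate 3. With the replicate number as a block, 14, 7 and 13 serpins were called in the 3 comparisons (background 45.0%, 9.03% and 40.1%). Same-numbered libraries did not deviate together (correlations of their deviations from -0.13 to 0.069), so the numbers were not taken as pairs. With paralogs summed, an alternative chosen after seeing the data, Serpinb1b with Serpinb1a turned to 0.48 after SNI, and Serpinb6b with Serpinb6a and Serpinb6e turned to -0.16 after SNI, to -0.30 with G15 and to -0.48 for SNI + G15 against sham; the sums follow the more abundant copies. Between SNI + G15 and SNI, the sign turned for Serpinb10, which was not called, without SNI replicate 2 (-0.099) and without SNI + G15 replicate 2 (-0.26; range with 1 library left out -0.26 to 0.22), and for Serpina10, also not called, without SNI replicate 2 (-0.075) and without SNI replicate 3 (-0.021; range -0.075 to 0.39). Of the single-gene values, paralog sums aside, 717 kept direction and side of the threshold, 38 lost and 6 gained the call. Low counts limit Serpina3n in sham, Serpinb2, Serpinb6b, Serpinb10 and Serpina10.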
